A study of Mus musculus with 4 samples.

Results

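The genes described here are the chemokines, chemokine receptors and lymphotoxin genes that place lymphocytes within a lymph node: Ccl19, Ccl21a, Cxcl12, Cxcl13, Ccr7, Cxcr4, Cxcr5, Lta, Ltb and Ltbr. They were taken by symbol from the deposited table of reads per gene, which held all 10 among its 38087 genes. Each of the 10 had enough reads to be tested. The KO group holds 2 samples, labelled Becn1-M-KO, from mice that lack Becn1 in myeloid cells, and the series title calls this material B cell lymphoma. The WT group holds 2 samples labelled wild type. Becn1 encodes the autophagy protein Beclin-1. All mice were C57BL/6 at postnatal week 20, and the labels give cervical lymph node as the tissue of both groups. The promoter that drove the deletion is not stated in the labels. Genotype and tumour cannot be told apart, because both go with the same samples. Nothing in the labels states that replicates are different mice, so the p-values cover only the spread among these 4 samples, which may be technical.

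In a lymph node, reticular fibroblasts release CCL19 and CCL21, which draw T cells and dendritic cells that carry the receptor CCR7 into the T cell zone. Follicular dendritic cells and other stromal cells of the follicle release CXCL13, which draws B cells that carry CXCR5. CXCL12, made by many stromal cells, acts through CXCR4. Lymphotoxin alpha and beta on lymphocytes engage the lymphotoxin beta receptor on stromal cells, which signals through the alternative NF-kB pathway and is needed for the formation and upkeep of these zones.

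The 4 libraries held 15604247 and 20067004 reads in KO and 16141605 and 17874699 reads in WT. Becn1 itself stood at 49.4 and 53.2 CPM in KO and 54.7 and 63.3 CPM in WT (log2 fold change −0.20, SE 0.21, adjusted p = 0.557 by edgeR), a whole-tissue level that does not check a deletion confined to myeloid cells. WT replicate 1 went against its tissue label. Its T cell marker list (12 genes) summed to 785 and 772 counts per 1000000 reads (CPM, here of the library total) in KO, 7.12 in WT replicate 1 and 981 in WT replicate 2. Cd3e, a subunit of the T cell receptor complex, had 1 read in WT replicate 1. The pan-B cell list (10 genes) summed to 2856 and 2771 in KO, 17.8 in WT replicate 1 and 1863 in WT replicate 2, and 8 of its genes were higher in both KO libraries than in either WT library, as were 34.3% of all genes tested. Salivary and other epithelial markers (11 genes) summed to 37.4 and 124 in KO and to 11270 and 12620 in WT, so both WT libraries held epithelial RNA and WT replicate 2 held lymphocyte RNA besides. Xist, expressed in females, had 3 and 34 reads in KO and 2088 and 5314 in WT, so the groups also differed in the sex this gene marks. The comparisons of the 10 genes below are therefore given with both WT libraries and against WT replicate 2 alone.

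Most of the 10 genes had few reads in WT replicate 1. There 7 had under 20 reads, while Ltb had 53, Cxcl12 had 186 and Ltbr had 937, and 9 had their lowest level of the 4 libraries in it. For those 9, the level in WT replicate 2 was 3.65 to 126.5 times that in WT replicate 1 with TMM scaling, and the ratios were larger by library total. In CPM of the library total, WT replicates 1 and 2 had 11.5 and 96.2 for Cxcl12, at the low end of that range. Cxcr5, at its high end, had 0.310 and 89.6. In bulk tissue, fewer cells of a type and less RNA per cell cannot be told apart. With both WT libraries in the test, 0 of the 10 genes passed an adjusted p of 0.05 in edgeR's quasi-likelihood test, and 0 had an unadjusted p under 0.05. Over all 20695 genes tested, 1.04% were called higher and 2.18% lower in KO, 3.22% in all. At an unadjusted p under 0.05 in the same test, 2180 of them were higher and 3391 lower. DESeq2 called 1 of the 10, Cxcl13 (4.15% of its tested genes were called higher and 7.72% lower). By level alone, both KO libraries lay above both WT libraries for 6 of the 10 genes, against 34.3% of all genes tested, and below both for 0, against 33.3%. The median log2 fold change was 1.23 over the 10 genes and 0.010 over all genes tested. The authors' deposited table of comparisons lists 5511 genes with an unadjusted p below its limit, and 0 of the 10 genes are among them.

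**Figure D1:**
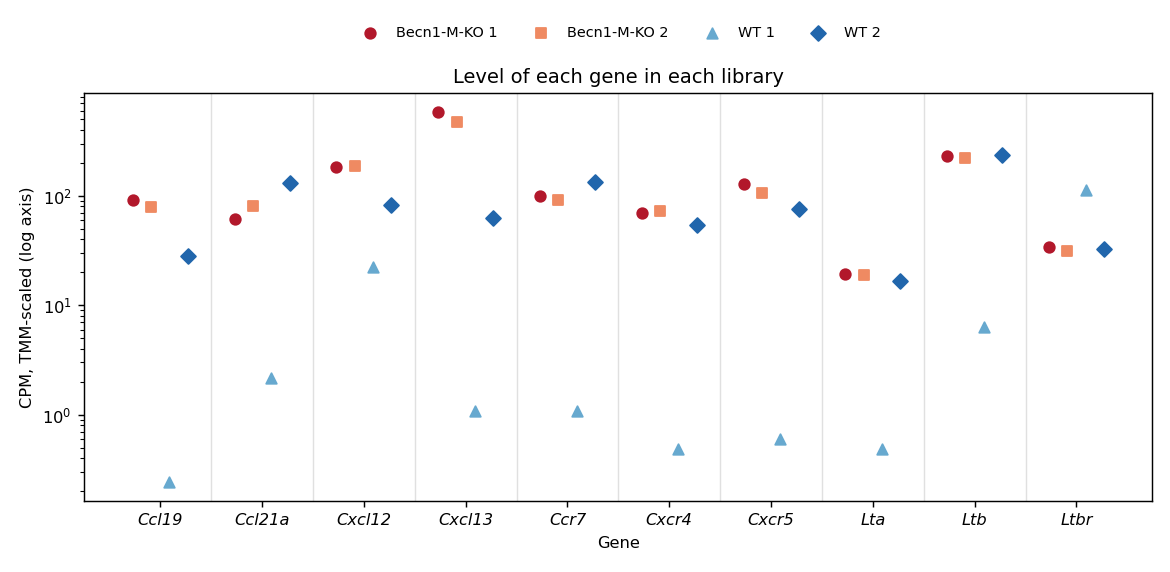
Level of each gene (CPM with TMM scaling, log axis) in the 4 libraries, with 1 symbol per library. The WT 1 symbols lie below all others for every gene but Ltbr, for which WT 1 is the highest at 113 CPM; the KO symbols lie above both WT symbols for Ccl19, Cxcl12, Cxcl13, Cxcr4, Cxcr5 and Lta.

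Against WT replicate 2 alone the 10 genes split. Ccl19, Cxcl12, Cxcl13, Cxcr4 and Cxcr5 were higher in KO at an adjusted p under 0.05 in edgeR, where 20.9% of 21844 genes were called higher, and Ccl21a and Ccr7 were lower, where 22.8% were called lower. Lta, Ltb and Ltbr were not called. With 1 WT library left, these p-values rest on the spread between the 2 KO libraries and say nothing of the spread among WT samples. Against WT replicate 1 alone, 9 of the 10 were called higher and Ltbr was called lower, where 32.3% and 32.5% of all genes were called.

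Cxcl13, the B cell chemokine of the follicle, showed the largest difference of the 10. It lies on chromosome 5 from 95956928 to 95961067 on the plus strand (mm10). It had 11657 and 12257 reads in KO, against 9 in WT replicate 1 and 1310 in WT replicate 2, or 585 and 471 CPM in KO and 1.08 and 62.3 CPM in WT. The groups did not overlap, and the WT libraries themselves differed by 57.5 times with TMM scaling, and by more in CPM of the library total (0.558 and 73.3). Cxcl13 had a log2 fold change of 4.05 (SE 1.85, 95% interval −1.07 to 9.18, adjusted p = 0.255 by edgeR). DESeq2 gave an adjusted p of 0.0222. The KO mean was 8.47 times the level of WT replicate 2 (log2 fold change 3.09, SE 0.22, adjusted p = 2.7e-07 by edgeR). The authors' deposited log2 values, centred on each gene's median, put Cxcl13 at 1.76 and 1.46 in KO and at −7.33 and −1.46 in WT. In KO, Cxcl13 was the highest of the 10 genes per length, at 509 and 410 CPM per kilobase of exon, against 0.943 in WT replicate 1 and 54.2 in WT replicate 2, where Ltb, Ccl21a and Ccr7 stood above it.

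The bases before the Cxcl13 start are printed here because this gene differed most, with those before Ltb, a lymphotoxin gene that was not called against WT replicate 2, and those before Ccl21a, the chemokine that was lower. They come from RefSeq (GRCm38.p6, which is mm10), run 5′ to 3′ on the gene's strand, and stop before the first base of the deposited gene. Capitals mark matches to GGAGANTT or GGGANNTTC, 2 patterns of the kind bound by NF-kB dimers, searched on both strands. The patterns were chosen after the data were seen, so a match is a description only, and binding was not tested. The Cxcl13 match to GGAGANTT lies from 113 to 106 bases before the RefSeq start, and the Ltb match to GGGANNTTC, on the opposite strand, from 86 to 78 bases before it. Over all 32851 promoter windows of 250 bases, 3.99% held GGAGANTT and 3.23% held GGGANNTTC. Of the 10 genes, 8 had a window, and neither pattern was found in the windows of the other 6, Ccl21a among them. In the Ccl19 window, 212 of the 250 bases lay inside the deposited gene and 38 before it, so that search says little about its upstream sequence.
Cxcl13 (chr5:95956689-95956927, plus strand): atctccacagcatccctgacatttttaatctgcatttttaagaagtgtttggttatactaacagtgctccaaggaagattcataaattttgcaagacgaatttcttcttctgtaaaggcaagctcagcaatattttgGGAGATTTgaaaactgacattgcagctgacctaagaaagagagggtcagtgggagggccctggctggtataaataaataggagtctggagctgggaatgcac
Ltb (chr17:35194257-35194438, plus strand): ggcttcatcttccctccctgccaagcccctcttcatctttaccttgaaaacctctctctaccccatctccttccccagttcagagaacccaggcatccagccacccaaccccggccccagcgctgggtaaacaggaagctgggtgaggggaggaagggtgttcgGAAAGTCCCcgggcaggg
Ccl21a (chr4:42773994-42774241, minus strand): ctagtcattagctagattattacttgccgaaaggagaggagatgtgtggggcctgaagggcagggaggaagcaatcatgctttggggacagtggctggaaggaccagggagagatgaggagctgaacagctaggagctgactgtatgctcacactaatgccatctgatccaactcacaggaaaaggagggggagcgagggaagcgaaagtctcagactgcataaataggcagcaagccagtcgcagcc

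Set against marker reads of the same library, a measure that no scaling changes, Cxcl13 was higher in both KO libraries than in either WT library for each of the 3 marker lists used. Per 1000 reads of the pan-B list it had 262 and 220 reads in KO and 31.4 and 39.3 in WT. Per 1000 reads of the follicular dendritic cell list (Mfge8, Clu, Prnp, Enpp2 and Madcam1, of which other cells also express several) it had 309 and 285 in KO and 9.86 and 61.8 in WT. Per 1000 reads of the reticular stroma list (9 genes) it had 712 and 698 in KO and 2.45 and 163 in WT. That list (Pdpn, Pdgfrb, Pdgfra, Col1a1, Col1a2, Col3a1, Dcn, Lum and Thy1) is not confined to reticular cells of a node. It still had 3669 reads in WT replicate 1, where lymphocyte markers were few. Stroma from outside the node may thus enter every ratio to this list, which was not tested. With 2 libraries against 2, no exact permutation test could reach 0.05, so these ratios are given without a test. The follicular dendritic cell list itself summed to 2420 and 2144 CPM of the library total in KO and to 56.6 and 1186 in WT, with 4 of the 5 genes above both WT libraries (34.3% of all genes tested) and Madcam1 at 0 reads in WT replicate 1. The part of these cells in the Cxcl13 level was not tested.

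**Figure D2:**
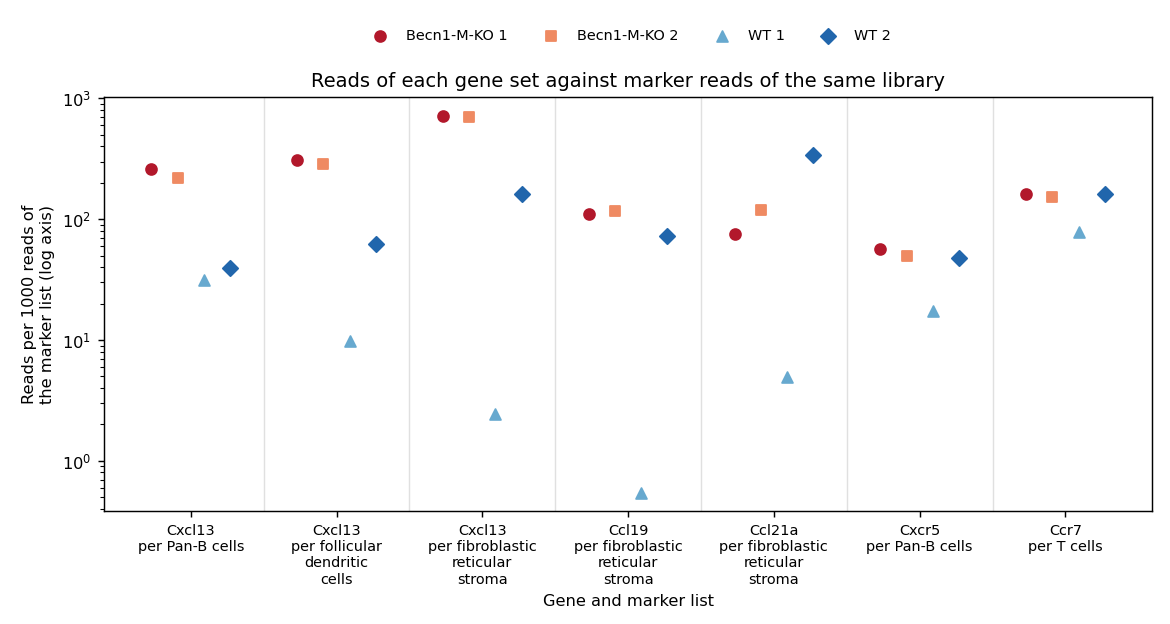
Reads of a gene per 1000 summed reads of a marker list in the same library (log axis), for 7 pairs of gene and list, with 1 symbol per library. Cxcl13 lies higher in both KO libraries than in either WT library for all 3 lists, while Ccl21a per reticular stroma reads lies between the 2 WT libraries and Ccr7 per T cell reads differs little between KO and WT 2.

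Ccl19 and Ccl21a, the paired ligands of CCR7, did not move together. Ccl19 (chromosome 4, 42754525 to 42756577, minus strand) had 1813 and 2067 reads in KO, against 2 in WT replicate 1 and 589 in WT replicate 2. Its level was 91.0 and 79.5 CPM in KO and 0.241 and 28.0 CPM in WT, with no overlap (log2 fold change 2.57, SE 1.73, adjusted p = 0.391 by edgeR). The KO mean was 3.04 times the level of WT replicate 2 (log2 fold change 1.61, SE 0.12, adjusted p = 4.7e-07).

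Ccl21a (chromosome 4, 42772860 to 42773993, minus strand) had 1224 and 2107 reads in KO and 18 and 2747 in WT. Its level was 61.4 and 81.0 CPM in KO and 2.17 and 131 CPM in WT, so the KO libraries lay between the 2 WT libraries (log2 fold change 0.096, SE 1.66, 95% interval −4.50 to 4.69, adjusted p = 0.975 by edgeR). Compared with WT replicate 2 alone, Ccl21a was lower in KO, at 0.545 times the WT level (log2 fold change −0.87, SE 0.14, adjusted p = 0.00032). Without KO replicate 2 the log2 fold change over both WT libraries was −0.10. Per 1000 reticular stroma list reads, Ccl21a had 74.8 and 120 reads in KO, 4.91 in WT replicate 1 and 342 in WT replicate 2. The stroma list itself summed to 1049 and 875 CPM of the library total in KO and 227 and 450 in WT, and 7 of its 9 genes lay above both WT libraries in both KO libraries, against 34.3% of all genes tested. With the median of the stroma genes in place of their sum, Ccl21a remained lower in KO than in WT replicate 2 (log2 difference −2.65, against −1.85 with the sum).

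The balance of the 2 ligands therefore differed between libraries. Ccl19 made up 59.7% (57.9 to 61.4) and 49.5% (48.0 to 51.0) of the reads of both genes in KO, against 10% (1.23 to 31.7, from 20 reads) in WT replicate 1 and 17.7% (16.4 to 19.0) in WT replicate 2 (exact Clopper-Pearson intervals at 95%, which cover counting error only). Their exons cover nearly the same length, 867 bases for Ccl19 and 870 for Ccl21a. Both KO shares lay above both WT shares, and this comparison was chosen after the values were seen. Cxcl13 made up 63.5% (62.8 to 64.2) and 57.5% (56.8 to 58.1) of the reads of the 4 chemokines in KO, against 4.19% (1.93 to 7.80) and 20.6% (19.6 to 21.6) in WT.

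**Figure D3:**
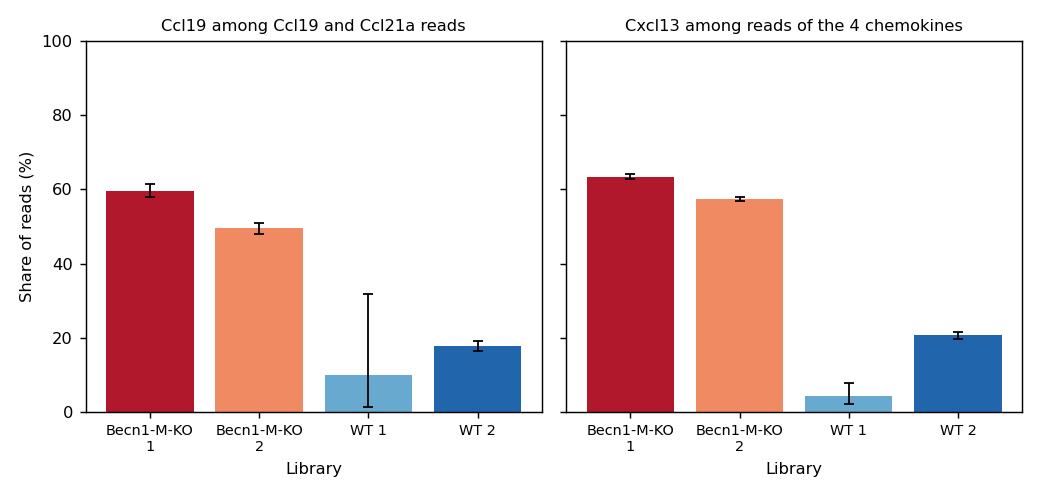
Share of reads (%) taken by Ccl19 among Ccl19 and Ccl21a reads, and by Cxcl13 among the reads of the 4 chemokines, in each library; error bars are exact 95% binomial intervals. Both KO libraries lie above both WT libraries in each panel, with 59.7% and 49.5% against 10% and 17.7% for Ccl19.

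Counting bears on both genes. A protein-coding gene on the opposite strand, 4930578G10Rik, spans them, and its 3115 and 4246 reads in KO and 27 and 3440 in WT were 1.02 to 1.35 times the sum of the Ccl19 and Ccl21a reads in the same library. The same reads may thus be listed under both strands, and reads of a gene and of its antisense partner cannot be told apart here. Mouse Ccl21 also exists in nearly identical copies. The coding sequence of Ccl21a in GENCODE M21 (402 bases) differs from those of the genes listed as Ccl21b (ENSMUSG00000094065) and Ccl21c (ENSMUSG00000095675) at 2 positions, T84A and C194T, counted from 1 at the start codon, and those 2 copies are identical to each other. The stretch from coding base 164 to 223 is printed to show how few bases separate them, with the mismatch in capitals.
Ccl21a: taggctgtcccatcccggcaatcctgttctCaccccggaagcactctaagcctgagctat
Ccl21b: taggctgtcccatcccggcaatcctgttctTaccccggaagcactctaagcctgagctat
Ccl21c: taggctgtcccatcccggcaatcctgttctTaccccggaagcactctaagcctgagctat
How the authors' counting shared reads among the copies is not given in the sources used here, so each copy's level is uncertain. Ccl21b had 369 and 656 reads in KO and 10 and 800 in WT, and Ccl21c had 290 and 422 in KO and 5 and 537 in WT. Both copies stood, as Ccl21a did, lower in KO than in WT replicate 2. Ccl21a took 65.0% and 66.2% of the reads of the 3 genes in KO and 54.5% and 67.3% in WT.

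Cxcl12, the stromal ligand of CXCR4, lies on chromosome 6 from 117168535 to 117181367 on the plus strand. It had 3663 and 4898 reads in KO and 186 and 1719 in WT, the highest count of the 4 chemokines in WT replicate 1. Its level was 184 and 188 CPM in KO and 22.4 and 81.8 CPM in WT, without overlap (log2 fold change 1.83, SE 0.69, 95% interval −0.085 to 3.75, adjusted p = 0.198 by edgeR). The KO mean was 2.27 times the level of WT replicate 2 (log2 fold change 1.19, SE 0.13, adjusted p = 9.8e-06). Per 1000 stroma list reads it had 224 and 279 reads in KO and 50.7 and 214 in WT. By the median of the stroma genes its log2 difference from WT replicate 2 turned to −0.58 and that of Ccl19 to −0.16, so a level of either gene above that of the stroma list was not shown.

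Among the receptors, Cxcr5 and Cxcr4 stood higher in KO than in either WT library and Ccr7 did not. Cxcr5, the CXCL13 receptor of B cells and follicular helper T cells (chromosome 9, 44511788 to 44556391, minus strand), had 2538 and 2747 reads in KO, against 5 in WT replicate 1 and 1602 in WT replicate 2. That is 127 and 106 CPM in KO and 0.603 and 76.2 CPM in WT (log2 fold change 1.59, SE 1.84, adjusted p = 0.601 by edgeR). The KO mean of Cxcr5 was 1.53 times the level of WT replicate 2 (log2 fold change 0.62, SE 0.13, adjusted p = 0.0023). Pan-B list reads were also higher in KO than in WT replicate 2, and per 1000 of them Cxcr5 had 56.9 and 49.4 reads in KO, 17.4 in WT replicate 1 (from 5 reads) and 48.1 in WT replicate 2.

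Cxcr4 (chromosome 1, 128588199 to 128592293, minus strand), which many leukocytes carry, had 1395 and 1874 reads in KO and 4 and 1141 in WT. Its level was 70.0 and 72.0 CPM in KO and 0.482 and 54.3 CPM in WT (log2 fold change 1.36, SE 1.75, adjusted p = 0.639 by edgeR). The KO mean of Cxcr4 was 1.31 times the level of WT replicate 2 (log2 fold change 0.39, SE 0.099, adjusted p = 0.0067).

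Ccr7, the receptor of naive T cells and migrating dendritic cells (chromosome 11, 99144196 to 99155077, minus strand), had 1973 and 2363 reads in KO and 9 and 2815 in WT. Its level was 99.0 and 90.8 CPM in KO and 1.08 and 134 CPM in WT, with KO between the WT libraries (log2 fold change 0.49, SE 1.83, 95% interval −4.59 to 5.56, adjusted p = 0.880 by edgeR). Compared with WT replicate 2 alone, Ccr7 was lower in KO, at 0.709 times the WT level (log2 fold change −0.49, SE 0.11, adjusted p = 0.0032). T cell list reads were lower in KO than in WT replicate 2 as well, and per 1000 of them Ccr7 had 161 and 153 reads in KO, 78.3 in WT replicate 1 (from 9 reads) and 161 in WT replicate 2.

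Ligand and receptor can be set side by side in each library. Reads of Cxcl13 per read of Cxcr5 were 4.59 and 4.46 in KO and 1.80 and 0.818 in WT. Reads of Ccl19 per read of Ccr7 were 0.919 and 0.875 in KO and 0.222 and 0.209 in WT. For both pairs the KO libraries lay above both WT libraries, although WT replicate 1 had at most 9 reads of each of these 4 genes. Reads of Ccl21a per read of Ccr7 were 0.620 and 0.892 in KO and 2 and 0.976 in WT, so KO lay below both. Reads of Cxcl12 per read of Cxcr4 were 2.63 and 2.61 in KO, 46.5 in WT replicate 1 and 1.51 in WT replicate 2. In WT replicate 1 the Ccl21a and Cxcl12 ratios rest on 9 reads of Ccr7 and 4 reads of Cxcr4. All the ligand and receptor pairs above were chosen after the values were seen and carry no test.

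**Figure D4:**
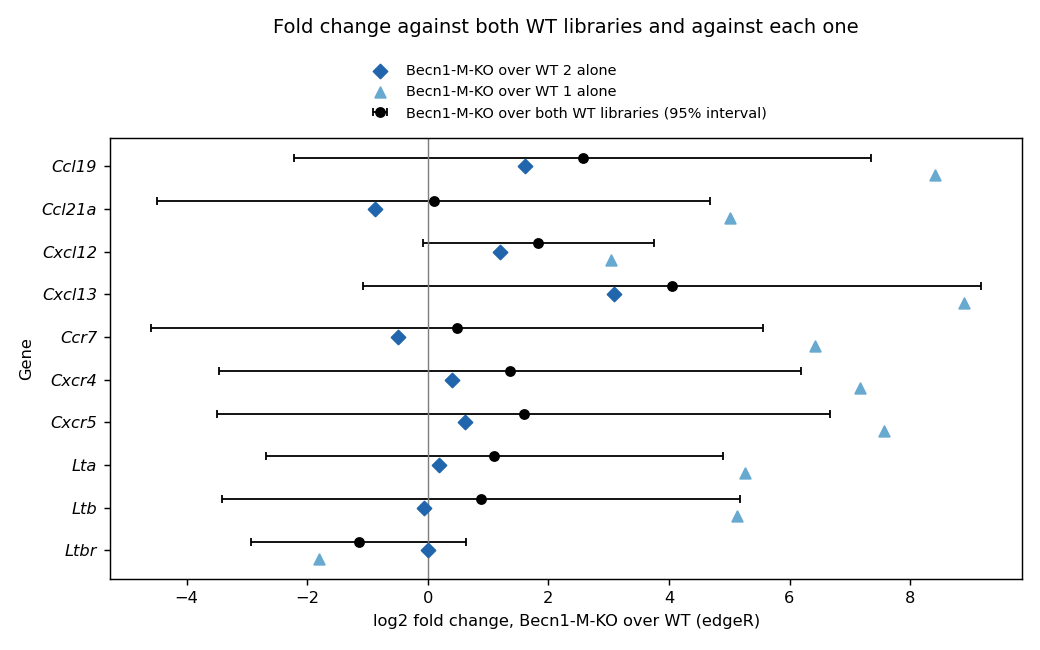
Log2 fold change of each gene, KO over both WT libraries (black, with the 95% interval of the edgeR fit), over WT 2 alone (diamonds) and over WT 1 alone (triangles). All 10 intervals cross 0; over WT 2 alone Cxcl13 stands at 3.09 and Ccl21a at −0.87, while over WT 1 alone only Ltbr is negative.

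The lymphotoxin genes stood close to WT replicate 2. Ltb, the membrane anchor of the lymphotoxin complex (chromosome 17, 35194439 to 35196320, plus strand), had 4597 and 5775 reads in KO and 53 and 5006 in WT. Its level was 231 and 222 CPM in KO and 6.39 and 238 CPM in WT (log2 fold change 0.89, SE 1.55, 95% interval −3.41 to 5.19, adjusted p = 0.735 by edgeR). Over WT replicate 2 alone its log2 difference came to −0.069 (SE 0.14, adjusted p = 0.735). Lta (chromosome 17, 35203165 to 35205351, minus strand), which forms the soluble trimer and pairs with lymphotoxin beta, had 382 and 489 reads in KO and 4 and 351 in WT, or 19.2 and 18.8 CPM in KO and 0.482 and 16.7 CPM in WT. Its log2 fold change was 1.11 (SE 1.37, adjusted p = 0.627 by edgeR), and 0.19 (SE 0.13, adjusted p = 0.277) against WT replicate 2 alone. There were 0.0831 and 0.0847 reads of Lta per read of Ltb in KO and 0.0755 and 0.0701 in WT. Per 1000 pan-B and T cell list reads Ltb had 80.9 and 81.2 reads in KO and 132 and 98.5 in WT, and Lta had 6.72 and 6.88 in KO and 9.95 and 6.91 in WT. These ratios give no direction against WT replicate 2: with the median of the list genes in place of their sum, the log2 difference turned to 0.17 for Ltb, against −0.28, and to 0.43 for Lta, against −0.022.

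Ltbr, the receptor, which stromal, epithelial and myeloid cells express and lymphocytes do not, was the exception among the 10. It lies on chromosome 6 from 125306571 to 125313885 on the minus strand. It had 681 and 819 reads in KO, against 937 in WT replicate 1 and 692 in WT replicate 2. Its level was 34.2 and 31.5 CPM in KO and 113 and 32.9 CPM in WT, so WT replicate 1 was the highest library and the other 3 lay between 31.5 and 34.2 (log2 fold change −1.15, SE 0.65, adjusted p = 0.324 by edgeR). The size of the WT replicate 1 value depends on scaling, since the TMM factor of that library was 0.514, against 1.18 to 1.30 in the others. Without it, in CPM of the library total, Ltbr was 43.6 and 40.8 in KO and 58.05 and 38.7 in WT, and the log2 fold change was −0.20. Against WT replicate 2 alone it was −0.00064 (SE 0.12). Per 1000 reticular stroma list reads Ltbr had 41.6 and 46.6 reads in KO and 255 and 86.1 in WT. That ratio had a log2 difference from WT replicate 2 of −0.97, and of −1.77 with the median of the stroma genes. The stroma list itself summed higher in both KO libraries than in either WT library. Epithelial list reads were high in both WT libraries, and the part of epithelium in the Ltbr level was not tested.

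In the profile over the 4 libraries (log2 CPM centred on each gene's mean), the 3 named genes nearest to each member were found by Euclidean distance. These are descriptions over 4 libraries, of which WT replicate 1 lies far from the rest. Nearest to Cxcr5 were Cd79b (0.255), Blk (0.273) and Spib (0.358), and nearest to Cxcr4 were Cr2 (0.188), Siglecg (0.203) and Btla (0.214). Ccr7 had Lat (0.134), Pydc3 (0.189) and Cd5 (0.306) as its nearest. Ccl19 was nearest to Irf4 (0.247), Pou2af1 (0.372) and Cd22 (0.541), and Ccl21a to Apol7c (0.218), Rasgrp2 (0.410) and Folr4 (0.439). Cxcl13 had the most distant neighbours, H2-M2 (0.924), Gbp1 (0.973) and Socs1 (1.13). Cxcl12 was nearest to March1 (0.047), Hmgb2 (0.0804) and Mmp23 (0.108). Lta was nearest to Myo1g (0.0958), Slamf1 (0.103) and Il21r (0.111), Ltb to Ms4a4b (0.126), Grap (0.157) and Cmah (0.158), and Ltbr to Fam108c (0.0725), D14Ertd668e (0.0784) and RNASEK (0.115).

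Of the other genes of lymphoid homing and lymphotoxin signalling, 53 of 58 listed symbols matched the table and 52 were tested. With both WT libraries, 0 were called higher and 1 lower by edgeR, where 1.04% and 2.18% of all genes were called. At an unadjusted p under 0.05 by edgeR, 4 were higher and 4 lower, against 2180 and 3391 of all 20695 genes tested. Their median log2 fold change was 0.82, against 0.010 over all genes tested. Both KO libraries lay above both WT libraries for 34 of the 52, against 34.3% of all genes tested, and below both for 4, against 33.3%. With WT replicate 2 alone, 26 of 53 were called higher and 10 lower, against 20.9% and 22.8% of all genes, and the median was 0.36.

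The gene called lower was Ccl28, a chemokine of mucosal and glandular epithelium, with 9 and 36 reads in KO and 2066 and 4646 in WT (0.452 and 1.38 CPM in KO, 249 and 221 CPM in WT; log2 fold change −7.97, SE 0.74, adjusted p = 0.0441 by edgeR). Over WT replicate 2 alone it was −7.82 (adjusted p = 2.2e-10). Its groups did not overlap, and epithelial list reads were likewise high in both WT libraries. Cxcl16, the ligand of CXCR6, stood at 123 and 111 CPM in KO and 21.7 and 35.5 CPM in WT (log2 fold change 2.03, SE 0.34, adjusted p = 0.0648; over WT replicate 2 alone 1.73, adjusted p = 2.6e-07). Ccl20, the ligand of CCR6, had 14 and 16 reads in KO and 0 and 4 in WT (log2 fold change over WT replicate 2 alone 1.76, adjusted p = 0.0883). The authors' deposited comparison lists 5511 genes, where the deposited counts cover 38087, and 5 of the 53 matched pathway genes are among them. Their log2 fold changes there were −8.96 for Ccl28, 2.25 for Cxcl16, −0.88 for Tnfrsf11a, 0.85 for Hsd3b7 and 0.85 for Traf3.

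Of the 14 tested genes of lymphotoxin and alternative NF-kB signalling, 12 lay above both WT libraries in both KO libraries, 1 lay below and 1 overlapped (34.3% and 33.3% of all genes tested lay above and below), and 0 were called. With WT replicate 2 alone 12 were called higher and 1 lower, against 20.9% and 22.8% of all genes. Tnf, the neighbour of Lta and Ltb on chromosome 17, stood at 20.3 and 22.3 CPM in KO and 1.33 and 7.14 CPM in WT (log2 fold change 2.28, SE 0.81, adjusted p = 0.182; over WT replicate 2 alone 1.58, adjusted p = 5.5e-06). Chuk, which encodes the kinase IKK alpha, had 50.3 and 53.2 CPM in KO and 25.5 and 35.2 CPM in WT (log2 fold change 0.77, SE 0.25, adjusted p = 0.158; over WT replicate 2 alone 0.56, adjusted p = 0.0011). Tnfrsf11a, which encodes the receptor RANK, was the gene below both WT libraries, at 7.28 and 8.04 CPM in KO and 15.4 and 16.8 CPM in WT (log2 fold change −1.08, SE 0.23, adjusted p = 0.0864; over WT replicate 2 alone −1.13, adjusted p = 0.0001). Relb and Nfkb2, the subunits of the alternative NF-kB dimer, and Map3k14, its upstream kinase NIK, were named after their values were seen. They stood at 108 and 105, 160 and 154, and 45.3 and 49.9 CPM in KO, against 17.2 and 64.5, 33.3 and 103, and 6.51 and 29.3 CPM in WT. Their log2 fold changes were 1.38, 1.20 and 1.40 over both WT libraries (adjusted p = 0.284, 0.290 and 0.312) and 0.73, 0.61 and 0.70 over WT replicate 2 alone (adjusted p = 0.00015, 0.0012 and 0.00036).

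Genes of egress were mixed. In both KO libraries, Sphk1 and Spns2, which make and export the egress signal sphingosine 1-phosphate, were below both WT libraries. They were 2 of the 10 tested genes of this group, against 33.3% of all genes tested. Their log2 fold changes were −1.46 (adjusted p = 0.148 by edgeR) and −1.26 (adjusted p = 0.159 by edgeR). Over WT replicate 2 alone their log2 fold changes were −0.98 and −0.68. In this group 2 of 10 lay above both WT libraries and 6 overlapped, and among adhesion genes 7 of 11 lay above, against 34.3% of all genes tested. Glycam1, the L-selectin ligand of high endothelial venules, had 139 and 98 reads in KO, 0 in WT replicate 1 and 10847 in WT replicate 2 (log2 fold change −5.59, SE 3.18, adjusted p = 0.329; over WT replicate 2 alone −6.60, adjusted p = 1.4e-09). It was named after its values were seen. The venule marker list (5 genes, Glycam1 among them) had a median log2 fold change of −0.068 over both WT libraries. Of its genes, 0 lay above and 0 below both WT libraries, against 34.3% and 33.3% of all genes tested. Over WT replicate 2 alone, the log2 fold changes of Chst4, Fut7 and Madcam1, also on that list, were −1.79, −0.94 and 0.042. Gcnt1, the remaining gene of the list, was not among the pathway genes, and its value is not given here. Over both WT libraries the log2 fold changes of Gcnt1 and Madcam1 lay above the list median, and those of Glycam1 and Chst4 lay below it. All 7 tested genes of receptor signal transduction lay above both WT libraries (34.3% of all genes), and 4 were called higher against WT replicate 2 alone (20.9% of all genes).

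**Figure D5:**
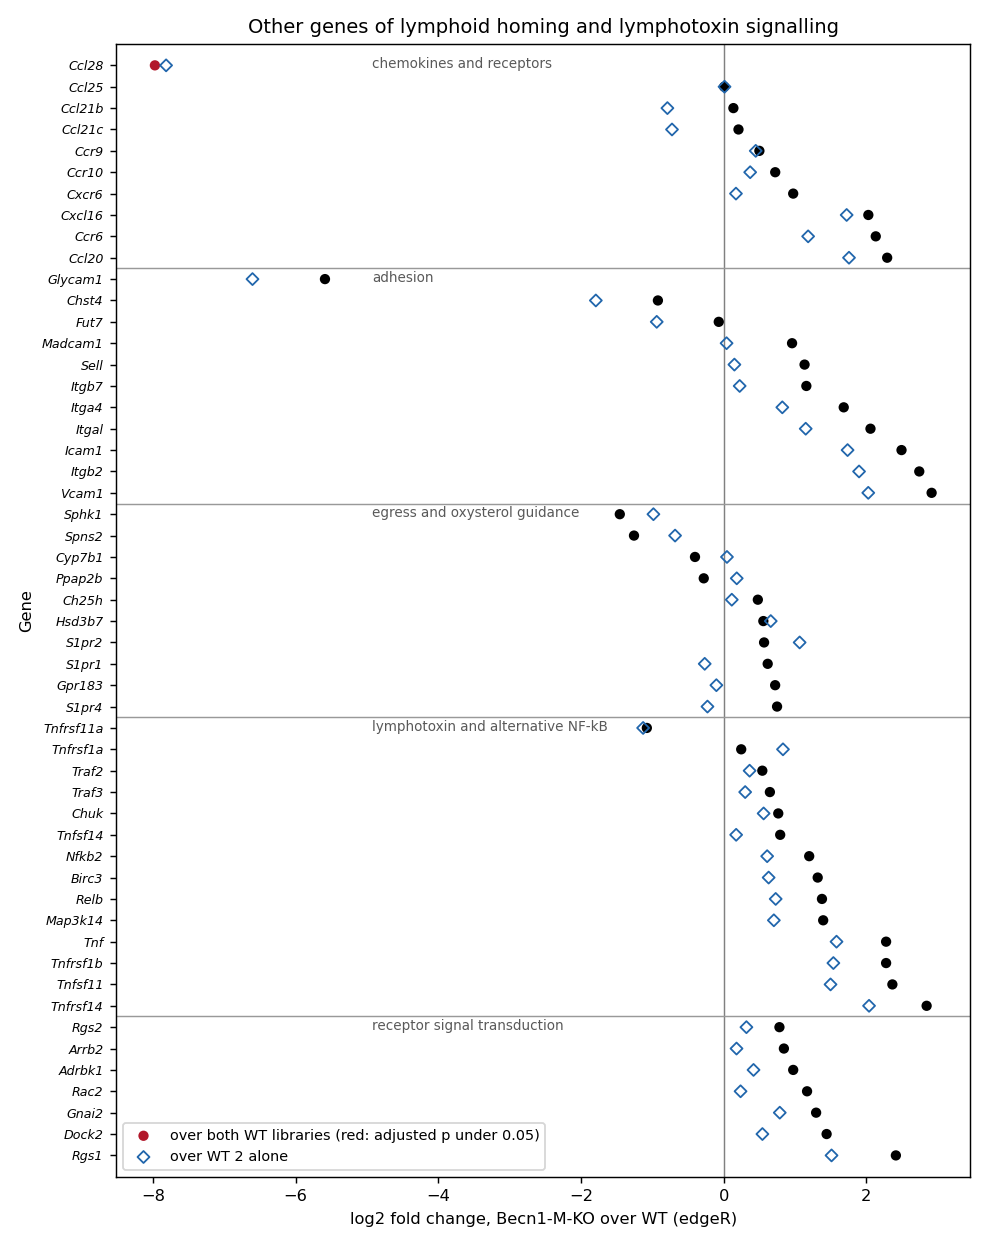
Log2 fold change, KO over both WT libraries (filled) and over WT 2 alone (open diamonds), for the 52 tested genes of lymphoid homing and lymphotoxin signalling, grouped by role. Ccl28, at −7.97, is the gene past an adjusted p of 0.05 with both WT libraries; most other filled points lie to the right of their diamonds.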

How the data were processed

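Ribosomal RNA was removed before library preparation, per the labels' protocols, and the design text names Ion Torrent sequencing. The authors deposited whole-number read counts for each gene, without normalization, per the file headers. The submitters' processing notes name mm10 and DESeq2 1.62 with no role attached; no source used here states the aligner or the counter. For all 38087 genes the listed length is the genomic span, so intronic reads may be included. The authors also deposited log2 values centred on the median of each gene, and a comparison table of log2 fold changes with unadjusted p-values that lists genes at p-values up to 0.05. A further 8 per-sample columns were left unused.

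The main test was edgeR 4.0.16 under R 4.3.3: a quasi-likelihood model of all 4 libraries with TMM scaling, after filterByExpr (minimum count 10, minimum total 15). Benjamini-Hochberg adjustment ran over every gene tested, two-sided, with a threshold of 0.05. CPM values carry TMM scaling unless given as of the library total. The SE of a fold change is that fold change over the square root of its F statistic. Finding 0 reads leaves room for 3, which is 0.149 to 0.192 CPM of the library total; intervals and floors cover counting error only. The scripts were tested on simulated counts. The alternatives were RLE size factors, library totals, no filter, a stricter filter (at least 1 CPM in 2 libraries with 20 reads overall), DESeq2 1.42.0, limma-voom (limma 3.58.1), a replicate block, and each library left out. A crossed block was added after seeing the data, as were the shares, the read ratios and the motifs.

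The 10 genes, the other lists and the naming rule were chosen with earlier results of these data known. All 10 are named, with the 8 other pathway genes of smallest p, of which Ccl28 alone passed the threshold. Nearest genes were sought among named genes with a mean log2 CPM of at least 3. Of the listed pathway symbols Ackr2, Ackr3, Ackr4, Plpp3 and Grk2 matched no row; Ppap2b and Adrbk1, older symbols of the last pair, were listed too. Ccl25 has a pair of overlapping rows and was counted once.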

Additional observations from a re-analysis of the deposited data

How the results depend on the processing

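With all 4 libraries, each of the 10 genes kept the sign of its log2 fold change and its side of the threshold under every alternative run, except that Cxcl13 passed with DESeq2 (adjusted p = 0.0222), the 1 of the 10 called there. Leaving out 1 library moved far more. The log2 fold change ranged from −0.87 to 5.02 for Ccl21a (−0.10 without KO replicate 2), from −0.49 to 6.43 for Ccr7 and from −0.069 to 5.13 for Ltb, each negative without WT replicate 1. Members called ranged from 0 to 9 higher and 0 to 2 lower. Over all genes the calls ranged from 0 to 6887 higher and 0 to 6922 lower with 1 library left out, and over pathway genes from 0 to 41 and 0 to 10. Without KO replicate 1 or 2 edgeR called 0 genes (732 and 1318, and 743 and 1342, higher and lower at an unadjusted p under 0.05). Library totals gave 0 and 0 calls by edgeR (1482 and 1509 at an unadjusted p under 0.05), 0 pathway genes lower, and moved the median of all genes from 0.010 to 0.60. With no count filter 542 and 1188 genes were called, with 1 pathway gene higher. DESeq2 called 1283 and 2384 genes, with 7 pathway genes higher. Deviations from the group mean correlated at −0.108 across genes between KO replicate 1 and WT replicate 1. With 2 replicates in each group, this value cannot show whether the replicate numbers pair the samples. The replicate block gave 0 and 0 calls over all genes (1866 and 2734 at an unadjusted p under 0.05) and 0 pathway genes lower. The crossed block gave 202 and 643. The cause was not tested.

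With the median of the list in place of its summed reads, the log2 ratio of KO to WT replicate 2 turned for Ltb (0.17, against −0.28), Lta (0.43, against −0.022), Ccl19 (−0.16, against 0.64) and Cxcl12 (−0.58, against 0.22). It moved without turning for Ccr7 (−0.11), Ccl21a (−2.65), Ltbr (−1.77), and for Cxcl13 per stroma (1.31) and per follicular dendritic cell reads (2.94). Tests with both WT libraries are limited by WT replicate 1, where 7 of the 10 genes had under 20 reads, and tests without it by the single WT library left.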

Other observations

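Pseudogenes and copies of the CCR7 ligands followed the gene they resemble. Ccl19-ps1 had 286 and 354 reads in KO and 0 and 167 in WT, and Ccl19-ps3 had 528 and 652 in KO and 0 and 182 in WT, so both were higher in KO than in either WT library, as Ccl19 was. The Ccl21-like genes Gm13304 (426 and 646 reads in KO, 4 and 862 in WT) and Gm10591 (257 and 449 reads in KO, 7 and 543 in WT) lay between the WT libraries, as Ccl21a did. These are raw reads of libraries of different depth, and reads that match several copies cannot be assigned from these files.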
